A study of Mus musculus with 8 samples.

Results

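The matrix metalloproteinases and their inhibitors were examined in sorted microglia of mice lacking *Smad2* and *Smad3*, the cytoplasmic transducers of canonical TGFβ signaling. The set was 10 genes given by symbol, of 55573 genes listed in the count matrix: the metalloproteinases *Mmp2*, *Mmp9*, *Mmp12*, *Mmp14* and *Mmp19*, the tissue inhibitors *Timp1*, *Timp2* and *Timp3*, and the related proteases *Adamts1* and *Adam8*. Polyadenylated RNA or total RNA (the sources differ) was sequenced from microglia of the brain at postnatal day 60, in 4 control and 4 mutant libraries. Mutants were Smad2/3 fl/fl;Cx3cr1 Cre, in which Cre expressed from the *Cx3cr1* locus removes the floxed alleles in microglia and in other macrophages that use this gene. The labels call the controls wild type, whereas the study's methods describe controls that in general carried Cre and a floxed allele, so that Cre may have been present in both groups. According to the methods, cells were enriched on a Percoll gradient and sorted by the TdTomato reporter, CD45 and CD11b. The labels do not say whether the 4 libraries of a group came from separate mice, while the study's methods state in general that replicates were taken from different mice.

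Matrix metalloproteinases are zinc-dependent enzymes that are made as inactive precursors and cut collagens, laminins and other matrix proteins, and also chemokines and receptors at the cell surface. TIMPs bind the active site of these enzymes and block it, and TIMP2 also has a part in activation, because a complex of MMP14 with TIMP2 at the cell surface captures the MMP2 precursor for cleavage. ADAMTS proteases cut proteoglycans such as versican, and ADAM proteases are membrane-bound and shed ectodomains. In the brain these enzymes are best known for remodelling the basement membrane of blood vessels and the perineuronal matrix.

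Total counts were 35639502 to 41946479 per library, and 20153 genes passed the filter of at least 10 counts in at least 4 libraries. *Smad3*, a targeted gene, had 39.4 to 56.8 counts per 1000000 counts (CPM) in controls and 15.04, 9.60, 35.1 and 17.5 CPM in mutants (log2 fold change −1.33 ± 0.36 SE, edgeR adjusted p = 0.0429), a call that was lost in 8 of 14 alternative fits. *Smad2*, the other target, had 74.5 ± 13.8 CPM in controls and 58.7 ± 14.95 CPM in mutants (SD, n = 4; edgeR adjusted p = 0.34), and gene-level counts include exons outside any deleted part. All 7 microglial markers examined were lower in mutants, with summed levels of 29250 to 44330 CPM in controls and 5247 to 7583 CPM in mutants, and 5 of 7 markers of border-associated macrophages were higher, with sums of 52.8 to 99.0 and 1630 to 2534 CPM. No marker on either list was at 0 in all libraries, and in these bulk samples fewer cells of a type and less RNA per cell cannot be told apart. The part of these marker shifts in the protease values was not tested. *Xist*, made from the inactive X chromosome, was at 136.8 ± 38.0 CPM in controls and 0.181 ± 0.254 CPM in mutants, and the Y-linked *Ddx3y* at 0.121 ± 0.0965 and 39.8 ± 21.4 CPM (SD, n = 4), so genotype and sex cannot be told apart in any comparison here.

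Among the 10 genes, *Mmp2* and *Adamts1* were lower in mutants and no gene passed the test in the other direction. These 2 of 10 stand beside 12.3% of all tested genes called in either direction and 7.97% called lower (4.36% were called higher). The same 2 genes were the ones whose control and mutant libraries did not overlap in CPM, which 22.1% of all tested genes showed (9.04% with mutants above controls and 13% with mutants below). The median log2 fold change was 0.10 over the 10 genes and 0.01 over all genes tested, and all 10 passed the filter. The 5 metalloproteinases had 1 gene lower and 4 not called, the 3 TIMPs had none called, and *Adamts1* was the one called of the ADAM and ADAMTS pair.

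**Figure D1:**
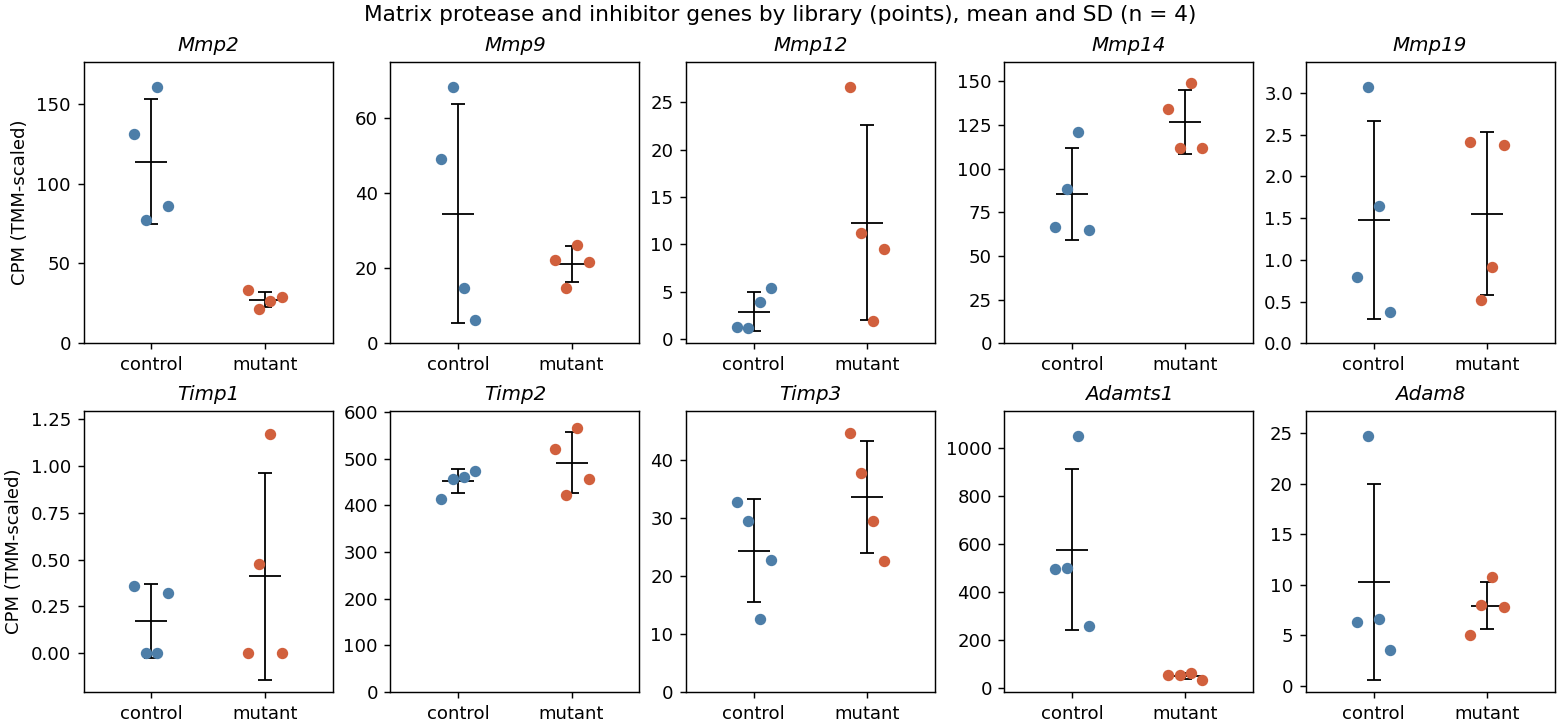
Level of each of the 10 genes in each library, in CPM on a linear axis with a separate scale per gene. Points are the 4 control and 4 mutant libraries, bars the mean ± SD. *Mmp2* (77.5 to 160.7 CPM in controls, 21.4 to 33.1 in mutants) and *Adamts1* (256.6 to 1049 and 33.6 to 62.0) separate the groups, and the other 8 genes overlap.

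*Mmp2* (ENSMUSG00000031740, mm10 chromosome 8, 92827291 to 92853420, plus strand) encodes gelatinase A, which cuts denatured collagen and the type IV collagen of basement membranes. It had 130.8, 77.5, 160.7 and 86.3 CPM in the 4 controls and 33.1, 21.4, 26.4 and 28.7 CPM in the 4 mutants. The lowest control thus lay above the highest mutant, and the spread was wider among controls. Means were 113.8 ± 39.0 and 27.4 ± 4.88 CPM (SD, n = 4), a 4.15-fold lower level in mutants (log2 fold change −2.05 ± 0.27 SE, edgeR adjusted p = 0.00135). In the fits that each dropped 1 library its log2 fold change stayed between −2.20 and −1.84, with edgeR adjusted p-values of 0.00192 to 0.00621.

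*Mmp14* (ENSMUSG00000000957, chromosome 14, 54431612 to 54445364, plus strand) encodes the membrane-anchored metalloproteinase that activates the MMP2 precursor. It had 66.8, 88.5, 121.1 and 64.6 CPM in controls and 133.9, 112.0, 148.8 and 111.6 CPM in mutants. Control 3 lay inside the range of the mutants and the other 3 controls lay below all mutants. The means were 85.3 ± 26.2 and 126.6 ± 18.1 CPM (SD, n = 4), and the log2 fold change of 0.57 ± 0.22 SE did not pass the test (edgeR adjusted p = 0.132). Without control 3 it was 0.79 with an edgeR adjusted p of 0.0394.

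*Mmp9* (ENSMUSG00000017737, chromosome 2, 164940780 to 164955850, plus strand) encodes gelatinase B, a protease abundant in neutrophil granules. Its level was 49.1, 68.2, 14.7 and 6.15 CPM in controls and 22.3, 14.7, 26.3 and 21.6 CPM in mutants. The controls thus held both the 2 highest and the lowest library, and the 4 mutants lay between them (log2 fold change −0.70 ± 0.63 SE, edgeR adjusted p = 0.512). Neutrophil markers followed a similar order at the top: their summed level was 2575 CPM in control 2 and 1440 CPM in control 1, the libraries with the highest and second highest *Mmp9*. In the other libraries the sum was 881.1 CPM in control 3, 549.6 in control 4, and 259.7, 764.5, 751.3 and 806.1 CPM in mutants 1 to 4. Of the 7 neutrophil markers, *Camp* and *Ltf* were called lower in mutants, 5 were not called and none was at 0 in all libraries. Per 1000 CPM of these markers *Mmp9* was at 11.2 to 34.1 CPM in controls and 19.3 to 85.9 CPM in mutants, and the part of neutrophil RNA in the *Mmp9* level was not tested.

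*Mmp12* (ENSMUSG00000049723, chromosome 9, 7344381 to 7369499, plus strand) encodes macrophage elastase. It had 1.21, 1.14, 3.86 and 5.35 CPM in controls and 26.6, 11.2, 1.95 and 9.51 CPM in mutants. Mutants 1, 2 and 4 lay above all controls and mutant 3 lay within them. The log2 fold change was 2.09 ± 0.78 SE and did not pass the test (edgeR adjusted p = 0.116), with an adjusted p of 0.0233 in DESeq2 and of 0.0508 in edgeR without mutant 3. Across all fits that left out a library the log2 fold change ran from 1.39 to 2.61.

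*Mmp19* (ENSMUSG00000025355, chromosome 10, 128790910 to 128800824, plus strand), a metalloproteinase of basement membrane substrates, was expressed at a low level. It had 0.80, 3.07, 1.65 and 0.38 CPM in controls and 2.41, 0.52, 0.92 and 2.37 CPM in mutants, and both groups spanned nearly the same range (log2 fold change 0.08 ± 0.75 SE, edgeR adjusted p = 0.964). Of its exon bases 22.3% overlap *Tmem198b* on the opposite strand (20.2 ± 5.01 CPM in controls and 12.1 ± 4.26 in mutants; SD, n = 4), and the labels describe the libraries as unstranded, so reads of the pair in the overlap cannot be told apart.

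The secreted inhibitor *Timp2* (ENSMUSG00000017466, chromosome 11, 118301069 to 118355740, minus strand) varied least among the 10 genes relative to its level. It had 414.5, 457.4, 461.0 and 473.0 CPM in controls and 521.0, 421.7, 566.7 and 457.2 CPM in mutants. Mutants 1 and 3 lay above all controls and mutants 2 and 4 did not. The means of 451.5 ± 25.6 and 491.6 ± 64.7 CPM (SD, n = 4) gave a log2 fold change of 0.12 ± 0.14 SE (edgeR adjusted p = 0.629). *Timp3* (ENSMUSG00000020044, chromosome 10, 86300372 to 86349506, plus strand), whose product is bound to the matrix and also inhibits ADAM proteases, had 32.7, 29.4, 12.6 and 22.8 CPM in controls and 44.5, 37.8, 29.5 and 22.5 CPM in mutants. The ranges overlapped, and the log2 fold change was 0.46 ± 0.32 SE (edgeR adjusted p = 0.387). *Timp3* lies inside the *Syn3* locus on the other strand and shares 21.3% of its exon bases with it, but *Syn3* itself had only 0.0725 and 0.307 CPM on average. *Timp1* (ENSMUSG00000001131, X chromosome, 20870166 to 20874735, plus strand), an inducible inhibitor, was listed with 14, 0, 0 and 12 counts in controls and 0, 22, 42 and 0 counts in mutants. Each group held 2 libraries with no read, for which 3 counts, or 0.0778 to 0.0838 CPM depending on the library, is the limit that a count of 0 allows (counting error only). The log2 fold change of 1.25 ± 1.72 SE (edgeR adjusted p = 0.689) rested on mutant 3 and was −0.08 without it.

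*Adamts1* (ENSMUSG00000022893, chromosome 16, 85793827 to 85803113, minus strand) encodes a secreted protease of versican and aggrecan. Its level was 496.0, 498.7, 1049 and 256.6 CPM in controls and 55.3, 52.6, 62.0 and 33.6 CPM in mutants. No mutant came near the lowest control. Means were 575.1 ± 335.7 and 50.9 ± 12.2 CPM (SD, n = 4), an 11.3-fold lower level in mutants (log2 fold change −3.50 ± 0.43 SE, edgeR adjusted p = 0.00102). Leaving out any single library kept the log2 fold change between −3.70 and −3.03 and the edgeR adjusted p between 0.000722 and 0.00551. *Adamts1* can be induced together with immediate early genes, which were high in all libraries: 11 immediate early and stress genes summed to 36020 to 82780 CPM in controls and 28720 to 56470 CPM in mutants. Only *Egr1* among the 11 was called, lower in mutants (log2 fold change −1.80, edgeR adjusted p = 0.0134), and control 3 was the highest library for both the sum and *Adamts1*. *Egr1* and *Jun* (edgeR adjusted p = 0.0601) were the 2 of 11 with all mutants below all controls, which 13% of all tested genes showed. The median log2 fold change was −0.47 over the 11 and 0.01 over all genes tested. Per 1000 CPM of the 11 summed genes *Adamts1* was at 7.13 to 12.7 CPM in controls and 0.988 to 1.83 CPM in mutants, which did not overlap. *Adamts1* did not overlap before this division either. The largest means in the sum were those of *Fos* and *Dusp1* (17110 and 10920 CPM over all libraries), neither called. The ratio thus cannot adjust for single genes such as *Egr1*, and the part of immediate early induction in the *Adamts1* level was not tested.

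*Adam8* (ENSMUSG00000025473, chromosome 7, 139978932 to 139992562, minus strand) encodes a membrane sheddase of leukocytes. It had 6.33, 24.7, 6.60 and 3.57 CPM in controls and 5.06, 7.96, 10.7 and 7.83 CPM in mutants. Control 2, which also had the highest neutrophil sum, stood above all others, and the log2 fold change turned from −0.38 ± 0.57 SE (edgeR adjusted p = 0.715) to 0.52 (edgeR adjusted p = 0.46) without it. Per 1000 CPM of the neutrophil markers *Adam8* was at 4.39 to 9.60 CPM in controls and 9.71 to 19.5 CPM in mutants. These ranges were apart by a narrow margin, whereas *Adam8* itself overlapped. The neutrophil sum used as divisor averaged 1361 CPM in controls and 645.4 CPM in mutants, so the separation is not read as a rise of *Adam8*. The part of neutrophil RNA in the *Adam8* level was not tested.

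**Figure D2:**
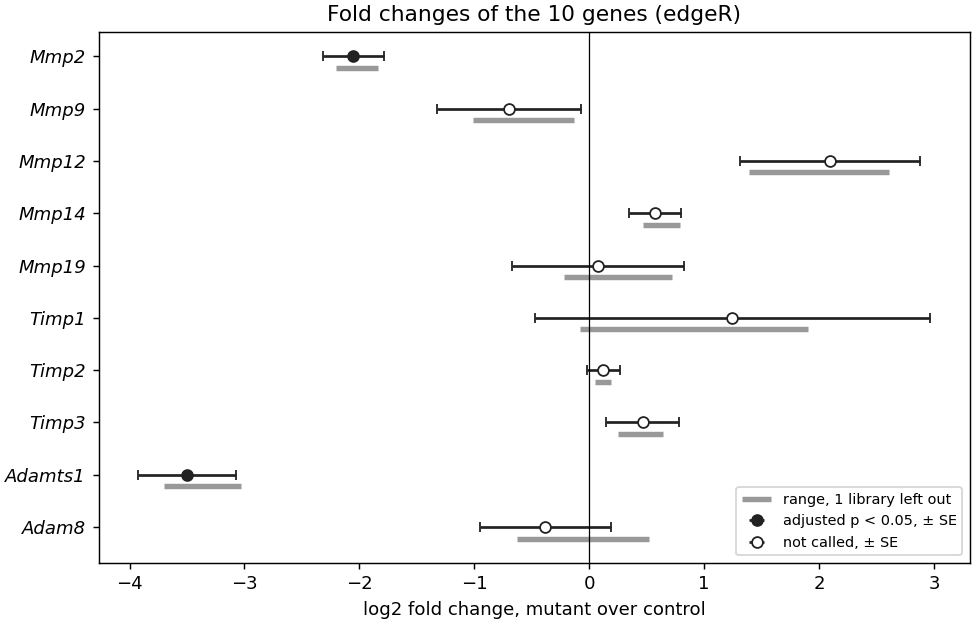
Log2 fold change, mutant over control, of the 10 genes, with the edgeR standard error as the bar and the range over fits that each left out 1 library. *Adamts1* (−3.50) and *Mmp2* (−2.05) are the ones past an adjusted p of 0.05, and the ranges of *Mmp19*, *Timp1* and *Adam8* cross 0.

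Levels of different genes were compared as CPM per kilobase of merged exons. *Timp2* was highest in both groups, at 115.9 ± 6.56 in controls and 126.2 ± 16.6 in mutants (SD, n = 4). In controls *Adamts1* came next at 108.5 ± 63.3, which did not differ from *Timp2* beyond its spread, followed by *Mmp2* at 33.8 ± 11.6, *Mmp14* at 14.3 ± 4.40 and *Mmp9* at 9.76 ± 8.23. The lowest *Mmp2* value among controls, 23.0, lay above the highest *Mmp14* value, 20.3, but per kilobase of the longest transcript the lowest *Mmp2* value was 25.2 and the highest *Mmp14* value 37.4, so that they overlapped. The values of *Mmp14* and *Mmp9* overlapped on merged exons. In mutants *Mmp14* was second at 21.2 ± 3.04, above *Adamts1* at 9.60 ± 2.30, *Mmp2* at 8.13 ± 1.45 and *Mmp9* at 6.001 ± 1.35, and the last 3 overlapped. *Timp3* was at 2.99 ± 1.09 and 4.12 ± 1.18 in controls and mutants, *Adam8* at 2.22 ± 2.09 and 1.70 ± 0.50, and *Mmp12* at 0.40 ± 0.29 and 1.70 ± 1.43. *Mmp19* and *Timp1* stayed below 0.5 on average in both groups.

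The proteins of *Mmp14*, *Timp2* and *Mmp2* act in the same complex, and the ratios of their CPM per kilobase of merged exons were taken within each library. Another choice of length would scale a ratio by the same factor in every library. *Mmp14* over *Mmp2* was 0.289 to 0.646 in controls and 2.20 to 3.19 in mutants. *Timp2* over *Mmp2* was 2.48 to 5.11 and 13.6 to 18.6. Both ratios separated the groups completely. They share *Mmp2* as the denominator, which separated the groups by itself, so the separation of the ratios is not a further result. *Timp2* over *Mmp14* was 5.82 to 11.2 in controls and 5.76 to 6.27 in mutants, which overlap.

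Another metalloproteinase, *Mmp13* (chromosome 9, 7272514 to 7283331, plus strand), the collagenase that cuts fibrillar collagens, belonged to a wider list examined beside the 10. It had 1, 0, 8 and 0 counts in controls, and 116.3, 60.8, 81.4 and 48.6 CPM in mutants. Every mutant was far above every control (edgeR log2 fold change 10.24 ± 0.78 SE, a value that depends on the prior count given only 9 control counts in all, edgeR adjusted p = 9.43e-05). *Mmp13* passed the filter only through the mutants, and with no filter on low counts its edgeR adjusted p was 4.02e-05. Per kilobase *Mmp13* was at 0.0233 in controls and 28.7 in mutants, where it was above *Mmp2* (8.13). Its order against *Mmp14* in mutants depended on the length used, with *Mmp14* at 21.2 per kilobase of merged exons and 39.1 per kilobase of the longest transcript, and *Mmp13* at 28.7 by both. Summed over all 23 listed metalloproteinase genes per kilobase, the level was 75.4 ± 18.7 in controls and 78.98 ± 14.6 in mutants (SD, n = 4), and these overlapped. Its make-up differed: *Mmp2* made up 27.1% to 58.2% in controls and 9.21% to 12.45% in mutants, *Mmp13* at most 0.102% in controls and 26.6% to 45.0% in mutants, and *Mmp14* 12.9% to 24.8% and 23.2% to 29.4%. The sum and the shares used merged exons and were not computed on the longest transcript, by which the mean of *Mmp14* was above that of *Mmp13* in mutants.

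**Figure D3:**
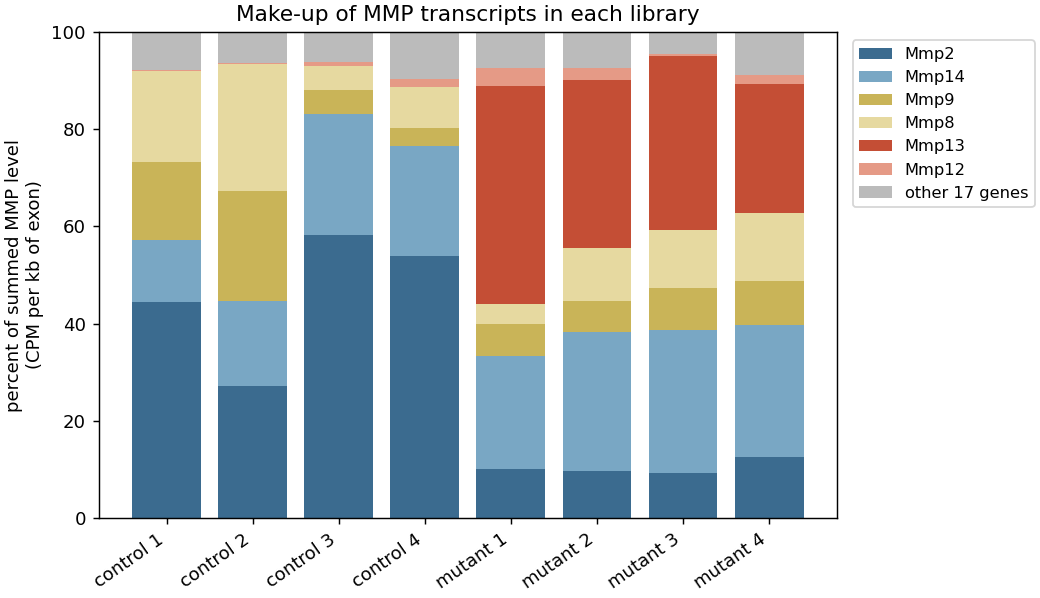
Share of each metalloproteinase in the summed metalloproteinase level of each library, in percent of CPM per kilobase of merged exons over 23 genes. Shares depend on the length used. *Mmp2* takes 27.1% to 58.2% in the 4 controls and 9.21% to 12.45% in the 4 mutants, where *Mmp13* takes 26.6% to 45.0%.

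Of 77 other genes in 5 lists of the protease system, 52 passed the filter and 14 had no count in any library. Among the 52, 5 were called higher and 5 lower, with a median log2 fold change of −0.16, beside 4.36% called higher, 7.97% called lower and a median of 0.01 over all genes tested. Of the 18 other metalloproteinases 9 passed the filter and *Mmp13* alone was called, while *Mmp1a*, *Mmp1b*, *Mmp3*, *Mmp7*, *Mmp10*, *Mmp20* and *Mmp27* had no count. Of the 12 other ADAM genes 9 passed, with 3 higher and 1 lower. Of the 18 other ADAMTS genes 8 passed, with 1 lower, and all 13 inhibitors, activators and partners passed, with 1 higher and 3 lower. None of the 13 matrix substrates that passed, of 16, was called. *Mmp13* and *Adamdec1* reached 10 counts only in mutants, and *Adamts16* only in the 4 controls and mutant 2. Each thus passed the filter through the group where it was high, so its call is not independent of the filter. With no filter on low counts their edgeR adjusted p-values were 4.02e-05, 0.00192 and 0.00241.

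The ADAM genes called higher were *Adamdec1*, which encodes a soluble ADAM-like protease of macrophages (at most 0.112 CPM in controls, 2.79 to 10.2 in mutants, edgeR adjusted p = 0.00244), *Adam19* (2.15 ± 0.56 and 43.3 ± 16.4 CPM, edgeR adjusted p = 0.000115) and *Adam22*, a catalytically inactive member that binds LGI proteins (5.15 ± 2.11 and 16.5 ± 4.59 CPM, edgeR adjusted p = 0.0245). *Cd44*, a hyaluronan receptor that holds MMP9 at the cell surface, rose from 18.4 ± 7.66 to 139.3 ± 41.5 CPM (SD, n = 4; edgeR adjusted p = 0.000912). The other calls were in the opposite direction. *Adamts16* was at 22.3 ± 10.7 CPM in controls and had 0, 19, 0 and 0 counts in mutants (edgeR adjusted p = 0.00326). *Adam15* fell from 225.6 ± 48.4 to 87.3 ± 18.8 CPM (edgeR adjusted p = 0.00349), with 20.6% of its exon bases under an antisense gene that unstranded reads cannot separate from it. *Serpine2*, a serpin that inhibits thrombin and plasminogen activators, fell from 793.1 ± 67.5 to 68.2 ± 25.0 CPM (edgeR adjusted p = 8.38e-05). *Furin*, a convertase that cuts the MMP14 precursor, fell from 82.1 ± 20.05 to 39.8 ± 7.82 CPM (edgeR adjusted p = 0.0185). *Adam22* and *Furin* lost their calls in 3 and 5 of 14 alternative fits. *Bsg*, the inducer of metalloproteinases also called EMMPRIN, was at 1145 ± 227.7 and 1393 ± 173.3 CPM, and *Lrp1*, the receptor that clears MMP and TIMP proteins, at 398.7 ± 89.7 and 307.6 ± 54.8 CPM, and neither was called.

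**Figure D4:**
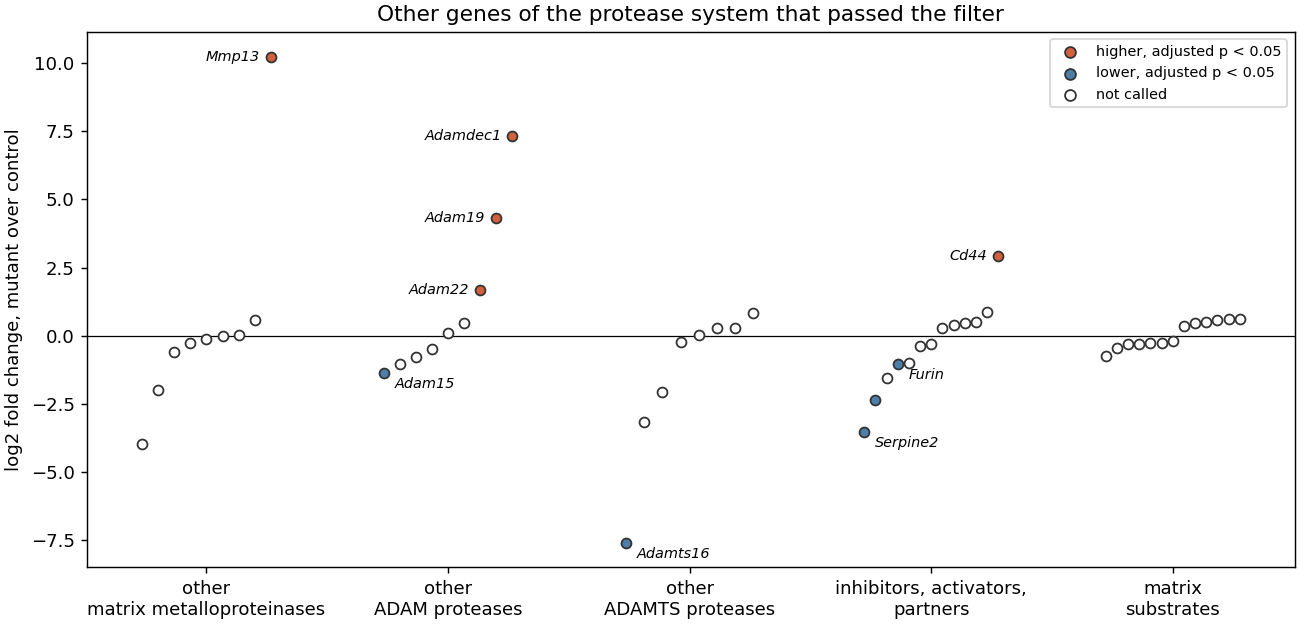
Log2 fold change, mutant over control, of the 52 genes of the 5 wider lists that passed the filter, by list. Filled points passed an edgeR adjusted p of 0.05 (5 higher, 5 lower, 9 of them labelled) and open points did not.

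Markers of other cells were read beside these values. The summed markers of monocytes, endothelial cells, astrocytes, oligodendrocytes and neurons had no gene called. Of 7 mural cell and fibroblast markers 5 were tested and 1, *Pdgfrb*, was called lower. It was at 1.47 to 16.4 CPM in controls and 0.0276 to 1.19 CPM in mutants, with sums of 3.41 to 23.2 and 1.49 to 8.07 CPM over the list. Most of the difference in the mean sum (16.0 and 4.98 CPM) lay in *Pdgfrb* (10.9 and 0.351 CPM). Mean levels of *Rgs5*, *Dcn*, *Col1a1* and *Lum* were also lower in mutants and those of *Acta2* and *Kcnj8* higher, none of them called. *Mmp2* is also made by fibroblasts and mural cells. In controls 1 to 4 the sum was 3.41, 19.4, 23.2 and 18.1 CPM, beside 130.8, 77.5, 160.7 and 86.3 CPM of *Mmp2*. In mutants 1 to 4 it was 5.34, 8.07, 5.01 and 1.49 CPM, beside 33.1, 21.4, 26.4 and 28.7 CPM of *Mmp2*. The part of mural or fibroblast RNA in the *Mmp2* difference was not tested.

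**Figure D5:**
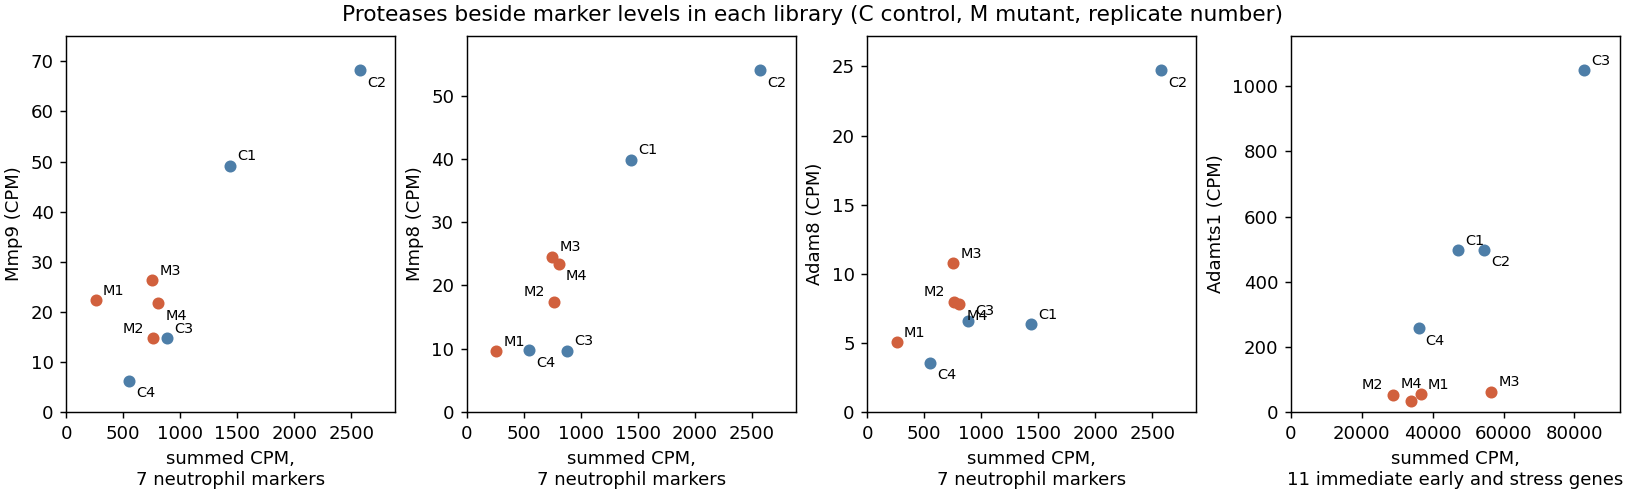
*Mmp9*, *Mmp8* and *Adam8* (CPM) against the summed level of 7 neutrophil markers, and *Adamts1* against that of 11 immediate early and stress genes, with 1 point per library (C control, M mutant, with its replicate number). Control 2 is highest for the first 3 genes and for the neutrophil sum (2575 CPM), and control 3 for *Adamts1* and the immediate early sum (82780 CPM), while the 4 mutants stay at 33.6 to 62.0 CPM of *Adamts1*.

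Promoter sequence is given for *Adamts1*, which fell, and for *Mmp12* and *Mmp13*, neighbours on chromosome 9 with the largest positive fold changes among the metalloproteinases. The windows are the 250 bases before a RefSeq start (GRCm38.p6), read 5′ to 3′ on the gene's strand, with motif matches in capitals. RefSeq windows were matched for 7 of the 10 genes, not for *Mmp2*, *Mmp9* and *Mmp19*. The motifs were searched on both strands: the AP-1 site TGANTCA (in 6.75% of 32851 windows of all genes), the SMAD-binding CAGA box CAGACA (17.1%), the GC box GGGCGG (32.7%) and the ETS core GAGGAAG (10.6%). The *Adamts1* window (chr16:85803114-85803363, minus strand) held 3 GC boxes. GC boxes also lay in the windows of *Mmp14*, *Timp1*, *Timp2*, *Timp3* and *Adam8*, none of which was called. No window of the 7 matched genes or of *Mmp13* held a CAGA box. *Mmp12* was not called (edgeR adjusted p = 0.116). Of the pair of *Mmp12* windows, the first, which spans the annotated gene start, held an ETS core match 87 to 81 bases before its start. It held no AP-1 match. The window of the second *Mmp12* start (chr9:7347124-7347373, plus strand), printed here, held an AP-1 match 44 to 38 bases before the start, and that of *Mmp13* (chr9:7272264-7272513, plus strand) held an AP-1 match 35 to 29 bases before it. The matches are descriptions of these letters, not of binding.
Adamts1: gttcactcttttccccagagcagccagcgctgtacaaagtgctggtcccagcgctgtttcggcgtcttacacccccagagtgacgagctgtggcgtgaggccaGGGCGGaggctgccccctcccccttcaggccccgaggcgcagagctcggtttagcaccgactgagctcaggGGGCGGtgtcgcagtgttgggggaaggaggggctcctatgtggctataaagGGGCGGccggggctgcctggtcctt
Mmp12: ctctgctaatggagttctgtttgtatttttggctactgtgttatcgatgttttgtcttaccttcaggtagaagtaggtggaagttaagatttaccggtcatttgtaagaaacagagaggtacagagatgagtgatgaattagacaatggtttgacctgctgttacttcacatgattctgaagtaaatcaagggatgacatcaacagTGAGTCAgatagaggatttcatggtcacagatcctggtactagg
Mmp13: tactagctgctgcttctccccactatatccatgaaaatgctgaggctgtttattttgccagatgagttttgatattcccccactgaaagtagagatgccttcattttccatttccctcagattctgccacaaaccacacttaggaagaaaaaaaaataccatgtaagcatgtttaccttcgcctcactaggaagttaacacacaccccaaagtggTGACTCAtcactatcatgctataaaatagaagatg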

How the data were processed

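RNA of sorted mouse microglia was compared between 4 mutant and 4 control libraries. The authors aligned the reads with Rsubread (Methods), and the submitters' processing notes name featureCounts, DESeq2 1.28 and mm10. The deposited raw counts per gene had not been normalized. Which annotation and which strand option were used for counting is not given in the sources used here. The labels give a single-end unstranded Nextera XT kit, whereas the Methods give a paired-end kit and name another deposit for the *Smad2/3* data. The authors' table of their own comparison (fold changes and p-values) was not used.

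Counts were tested with edgeR 4.0.16 in R 4.3.3 (at least 10 counts in at least 4 libraries, TMM, glmQLFit and glmQLFTest without a block) on 20153 genes, and a Benjamini-Hochberg adjusted p under 0.05 over all of these made a call. CPM used TMM-scaled library sizes. Alternatives were DESeq2 1.42.0, other scalings and filters, a replicate block, and each library left out in turn. The procedure was tested on simulated data. Symbols and exons came from GENCODE M21, which matched 55480 of 55573 IDs. The 10 genes, the lists and the marker lists were chosen with earlier results of these data known. The wider-list genes named are those called, plus *Bsg* and *Lrp1*; 1 called gene enters the counts but is not reported here. Depth was 35639502 to 41946479 counts per library. Same-numbered libraries correlated at 0.018 to 0.166 in their deviations from group means, not over 0.1 for every pair, and were not treated as pairs.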

Additional observations from a re-analysis of the deposited data

Results flagged for a closer look

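In 7 of 46 groups of 4 libraries tested, 1 library stood apart from the other 3 by Dixon's criterion (the gap to the nearest value as a share of the range). Chance gives this in about 1 of 20 groups of normally distributed values. The CPM here were not shown to be normal, and *Mmp13* in controls and *Adamts16* in mutants were near 0, so 7 of 46 is not read as an excess. *Adam8* was at 24.7 CPM in control 2, against 3.57 to 6.60 in the other controls. *Mmp13* was at 0.224 CPM in control 3 and at most 0.0258 in the others. *Adam19* was at 3.00 CPM in control 1, with 1.92 the nearest value. *Adam22* was at 1.99 CPM in control 4, with 6.04 the nearest value. *Adam15* was at 297.5 CPM in control 3, against 192.3 to 207.1 in the others. Among mutants, *Adamts16* was at 0.41 CPM in mutant 2 and at 0 in the other 3, and *Serpine2* was at 105.5 CPM in mutant 1, with 58.1 the nearest value.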

How the results depend on the processing

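*Mmp2* and *Adamts1* kept their direction and their calls in all 14 alternative fits. Over all genes tested, 878 were called higher and 1607 lower. DESeq2 called 1889 higher, and leaving out a library gave 525 to 1024 higher and 1005 to 1587 lower, with fewest higher calls without control 2 and fewest lower calls without control 3. Scaling by library totals called 1016 higher and 1286 lower and moved the median log2 fold change of all genes to 0.13. Of the 10 genes, 1 was called higher by DESeq2 (*Mmp12*), and 0 to 1 with a library left out (*Mmp14* without control 3). Of the wider lists, 3 were called higher when at least 10 counts were required in all libraries, where fewer genes were tested. *Mmp13*, *Adamdec1* and *Adamts16* were not tested under that filter. Leaving out a library gave 4 to 5 higher and 3 to 7 lower calls in the wider lists, with 3 lower without control 2, control 3, mutant 2 or mutant 4. With the longest transcript in place of merged exons, 2 genes changed rank in controls and 4 in mutants, *Mmp2* and *Mmp14* overlapped in controls, and *Mmp14* lay above *Mmp13* in mutants (39.1 and 28.7). For single genes, 287 of 318 alternative values kept direction and side of the threshold, 23 lost a call, 2 gained one and 6 reversed. With a library left out the log2 fold change ran from −0.22 to 0.72 for *Mmp19*, −0.083 to 1.90 for *Timp1* and −0.63 to 0.52 for *Adam8*. The reversals were *Mmp19* without control 1 (−0.13), control 4 (−0.21), mutant 1 (−0.22) or mutant 4 (−0.20), *Timp1* without mutant 3 (−0.083) and *Adam8* without control 2 (0.52), and none of these genes was called in any fit. *Smad3* lost its call with no filter (adjusted p = 0.051) and without any single library other than mutant 3 (0.0565 to 0.11). *Adam22* lost it without control 2, control 3 or mutant 3. *Furin* lost it without control 2, control 3, mutant 2 or mutant 4, and with the replicate block (adjusted p = 0.0576). With the replicate block, 886 genes were called higher and 1497 lower, 2001 of them shared with the fit without it, and 6 of 8 libraries correlated best with their own number. The causes were not tested. *Timp1* had at most 42 counts in any library.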

Other observations

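The following genes of the wider lists were singled out after their values were seen. *Mmp28*, a metalloproteinase of epithelia and macrophages, was at 1.52 ± 0.69 CPM in controls and 0.094 ± 0.148 CPM in mutants (SD, n = 4), without overlap but not called (log2 fold change −3.96 ± 1.23 SE, edgeR adjusted p = 0.0674). *Adam17*, the sheddase of TNF, was at 130.7 ± 21.9 and 63.4 ± 29.7 CPM, also without overlap and not called (edgeR adjusted p = 0.0578). *Adam33* did not pass the filter, with 0 to 0.252 CPM in controls and 13.3, 4.16, 0 and 13.5 CPM in mutants, so mutant 3 had no read while the other 3 mutants lay above all controls. *Mmp8*, the neutrophil collagenase, had 39.9, 54.0, 9.67 and 9.75 CPM in controls and 9.62, 17.4, 24.5 and 23.4 CPM in mutants, with the same 2 libraries highest as for *Mmp9*. *Timp4* was at 46.4, 20, 8.22 and 11.2 CPM in controls and 41.7, 23.4, 15.7 and 38.5 CPM in mutants, and control 1 and mutant 1 were the highest libraries of each group for it and for the summed astrocyte markers (1316 and 1117 CPM). Below these the orders differed. Mutant 4, with 38.5 CPM of *Timp4*, had an astrocyte sum of 427.1 CPM, and mutant 2, with 23.4 CPM, had 608.7 CPM. The part of astrocyte RNA in the *Timp4* level was not tested.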
